A study of Arabidopsis thaliana with 7 samples.

Results

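Pentatricopeptide repeat (PPR) genes were examined in 6 gene lists made from open chromatin of the *msh1* memory line of *Arabidopsis thaliana*. A gene was taken as a member where the deposited description, up to its first semicolon, held the word pentatricopeptide or PPR as a word of its own. This gave 39 genes of the 2600 genes present in at least 1 list. A search for the letters ppr inside any word would have added 3 genes of other kinds, which were left out: *SOG1* (AT1G25580), a DNA damage response regulator whose description begins with suppressor, AT1G69340, described as an Appr-1-p processing enzyme, and AT3G52120, a SWAP domain protein.

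The assay was FAIRE-seq, in which crosslinked chromatin is sheared and extracted with phenol so that the DNA free of protein, mostly open chromatin, is recovered and sequenced. Whole rosettes of Columbia-0 seedlings were taken after 14 days on MS medium at 24 °C with 12 h of light, and crosslinked libraries came from 2 wild type plants (biological replicates 2 and 3) and 3 *msh1* memory line plants (biological replicates 1, 2 and 3, here memory plants 1, 2 and 3). The memory line has the Columbia-0 background of the wild type and goes back to ancestors with suppressed *MSH1*, a nuclear gene whose protein maintains organelle DNA. Whole rosettes mix all leaf and meristem cell types, so that a region open in more cells and a region more open in each cell cannot be told apart. A pool of 3 decrossed plants of each genotype, made as a technical control, was not analysed here.

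Each list holds the genes that the authors associated with peaks of 1 memory plant called against 1 wild type library, within a window of 2 kb up and down. The memory plant of each list is known from the labels, whereas the wild type library is given as a code, C2 or C3, that could not be matched to a replicate. A list gives presence or absence of a gene, with no read count, height or peak position used here, and the sequencing depth is unknown. The 6 lists share 3 memory plants and 2 controls, so that they are not 6 independent samples, and no test was made between them. Absence from a list does not show that the chromatin was closed or was the same in both plants. The list sizes were 1608, 1296 and 1213 genes for memory plants 1, 2 and 3 against C2 and 1305, 1053 and 973 genes against C3.

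PPR proteins are nuclear-encoded, and most are imported into mitochondria or chloroplasts, where their tandem helical repeats bind RNA in a sequence-dependent manner. Members of the P class mostly act in RNA stability, cleavage, intron splicing and translation. Members of the PLS class mostly act in the editing of cytidine to uridine and carry an E or a DYW domain at the carboxyl terminus, the latter holding the deaminase activity. The family is one of the largest in land plants, and its genes commonly lack introns.

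A total of 5 PPR genes were present in all 6 lists. They were AT2G17670, AT3G05340 (named PCMP-E83 in the lists), AT3G15200, AT3G15590 and AT5G41170. PCMP stands for plant combinatorial and modular protein, and the letter E marks members with an E domain. The descriptions placed AT3G15590 and AT5G41170 in mitochondria and gave no organelle for the other 3. The positions are those of the genes in the RefSeq annotation of TAIR10.1, and not of peaks. AT2G17670 lies on chromosome 2 from 7674319 to 7676276 on the plus strand and codes for 463 residues in 1 exon. AT3G05340 lies on chromosome 3 from 1523463 to 1526166 on the minus strand, with 658 residues in 1 exon. AT3G15200 and AT3G15590 lie on the minus strand of the same chromosome, from 5117489 to 5119060 and from 5275387 to 5278019, with 523 residues in 1 exon and 610 residues in 3 exons. AT5G41170 lies on chromosome 5 from 16478486 to 16480584 on the minus strand and has 527 residues in 1 exon. AT3G15590 is one of 14 members named in the reference as tetratricopeptide repeat-like proteins, a related fold. The reference gives it no pentatricopeptide domain, so that by annotation its place in the family rests on the deposited description. Its closest relative in the reference by protein sequence was another member, *PPR596* (AT1G80270), at 44.52% identity.

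Since the association window covers the sequence upstream of each gene, the 250 bases before the annotated start of 4 of these 5 genes are shown, read 5′ to 3′ on the strand of the gene from TAIR10.1. AT3G15200 was left out because its annotated start is the start of its coding sequence. Capitals mark matches on either strand to the site II elements TGGGCC and TGGGCT, which bind TCP factors and are frequent before genes for organelle and ribosomal proteins, to the telo-box AAACCCTA, and to TATAAA.
AT2G17670, chr2:7674069-7674318, plus strand: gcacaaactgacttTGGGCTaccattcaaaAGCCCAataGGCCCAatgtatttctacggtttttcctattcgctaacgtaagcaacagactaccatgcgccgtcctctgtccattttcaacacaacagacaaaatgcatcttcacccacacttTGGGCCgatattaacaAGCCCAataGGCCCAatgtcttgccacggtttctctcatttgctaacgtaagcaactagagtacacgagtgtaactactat
AT3G05340, chr3:1526167-1526416, minus strand: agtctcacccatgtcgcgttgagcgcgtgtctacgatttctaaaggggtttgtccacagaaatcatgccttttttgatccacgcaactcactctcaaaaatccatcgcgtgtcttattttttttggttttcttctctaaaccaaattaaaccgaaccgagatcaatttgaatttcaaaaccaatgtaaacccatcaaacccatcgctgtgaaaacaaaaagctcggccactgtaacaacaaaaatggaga
AT3G15590, chr3:5278020-5278269, minus strand: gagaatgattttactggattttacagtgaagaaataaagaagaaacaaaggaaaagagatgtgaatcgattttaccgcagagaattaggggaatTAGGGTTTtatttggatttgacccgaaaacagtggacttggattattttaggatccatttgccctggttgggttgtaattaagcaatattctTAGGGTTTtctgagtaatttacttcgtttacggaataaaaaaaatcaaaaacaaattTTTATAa
AT5G41170, chr5:16480585-16480834, minus strand: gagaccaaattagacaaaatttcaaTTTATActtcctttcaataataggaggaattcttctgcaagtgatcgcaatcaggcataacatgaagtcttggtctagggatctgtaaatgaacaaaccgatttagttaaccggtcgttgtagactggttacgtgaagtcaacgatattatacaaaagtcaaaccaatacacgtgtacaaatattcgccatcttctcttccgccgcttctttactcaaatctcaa

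The window of AT2G17670 held 6 site II matches in 2 groups of 3. In both groups the first match was on the gene strand and the other 2 on the opposite strand, with first bases 16 and 9 bases apart. The matches began 236, 220 and 211 bases before the gene in the distal group and 97, 81 and 72 bases before it in the proximal group, which puts the groups 139 bases apart. Both groups shared an identical run of 20 bases, aagcccaataggcccaatgt, which holds 2 of the 3 matches, and with that offset 72 of 111 bases (64.9%) of the distal part recurred in the proximal part. The window of AT3G15590 held the telo-box on the opposite strand at 156 and 64 bases before the gene, and a TATAAA match on that strand 7 bases before it. The window of AT5G41170 held a TATAAA match on the opposite strand, and that of AT3G05340 held none of the 4 motifs.

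Over all 39 genes the windows held TGGGCC in 11 (28.2%), TGGGCT in 10 (25.6%) and either of them in 14 (35.9%). These counts include AT3G15200 and the other members with no untranslated sequence annotated before the coding sequence, 7 (17.9%) in all. Where the next gene is close, as at AT2G36730 with 12 bp of space on its 5′ side, the window also reaches into that gene. The same search found either site II element in 30.5% of all 466 PPR genes of the reference and in 19.2% of all protein-coding genes. The telo-box was found before 4 members (10.3%), against 7.94% of the PPR genes and 4.49% of all genes, and TATAAA before 15 members (38.5%), against 36.3% and 47.3%. With both strands read, the family stood above all genes for site II and the telo-box. Read on the gene strand alone, either site II element was found before 6 members (15.4%), against 20.8% of the family and 12.7% of all genes, so that the members stood nearer to all genes there and above their family with both strands. The telo-box was found on that strand before 2 members (5.13%), against 3.22% and 2.46%, and TATAAA before 6 (15.4%), against 20% and 32.9%. AT1G31840 also held 6 matches, 4 to site II elements and 2 to the telo-box, whereas 14 of the 39 windows held none. These are matches of letters, and neither binding nor a peak was measured at any of them.

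The next genes in order of recurrence were AT1G18900 and AT4G33170 (PCMP-H53), each in 5 lists. AT1G18900 was absent from the list of memory plant 3 against C3, and AT4G33170 from that of memory plant 2 against C3. The letter H marks the DYW group, and AT4G33170 was one of 2 members whose protein ends in the letters DYW in the reference, the other being AT4G37170 (PCMP-H5). A total of 4 genes were in 4 lists. AT1G09900 was listed for memory plants 1 and 2 against both controls and AT3G48810 for memory plants 2 and 3 against both. *PPR336* (AT1G61870), for a protein found with mitochondrial ribosomes, was listed for all 3 memory plants against C3 and for memory plant 1 against C2.

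Of the 8 genes in 3 lists, 4 were listed for every memory plant against 1 control and for none against the other. AT2G02150 (EMB2794 in the reference), AT3G42630 and AT3G62470 had this form against C2, and AT1G31840 had it against C3. These are 7.69% and 2.56% of the members, near the 6.04% and 1.85% of all listed genes with the same forms. *EMB975* (AT2G01860) was listed for memory plants 2 and 3 against C2 and for memory plant 3 against C3. AT4G37170 (PCMP-H5) and AT5G28460 were listed for memory plants 1 and 2 against C2 and for memory plant 1 against C3, and AT5G37570 (PCMP-E37) for memory plant 2 against both controls and for memory plant 3 against C3. Each of these last 4 genes was listed against both controls for a single memory plant.

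A total of 10 genes were in 2 lists. The pair of lists belonged to a single memory plant against both controls for *PPR596* (AT1G80270), which acts in mitochondrial RNA editing, *EMB2076* (AT3G29290) and AT4G26680, all in memory plant 1, and for AT2G26790 in memory plant 2. It belonged to 2 memory plants against the same control for AT1G73400 and AT5G42310 against C2 and for AT2G36730 (PCMP-E44), AT2G38420 and *EMB976* (AT5G27270) against C3. AT1G03510 (PCMP-E3) was listed for memory plant 1 against C2 and for memory plant 3 against C3, the one member found against both controls with no memory plant found against both.

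The remaining 10 genes were in 1 list each. Against C2 these were *GRP23* (AT1G10270), a glutamine-rich PPR protein needed in embryo development, AT2G15980 and *EMB1006* (AT5G50280) for memory plant 3, and AT1G31790 (PCMP-A1) and AT1G73710 for memory plant 2. Against C3 they were AT1G05005, AT1G08610, AT1G64430 and AT4G25270 for memory plant 2 and AT1G06580 for memory plant 1. AT4G25270 (PCMP-E53) is *OTP70*, for organelle transcript processing 70, a chloroplast protein of the E group that acts in intron splicing.

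**Figure D1:**
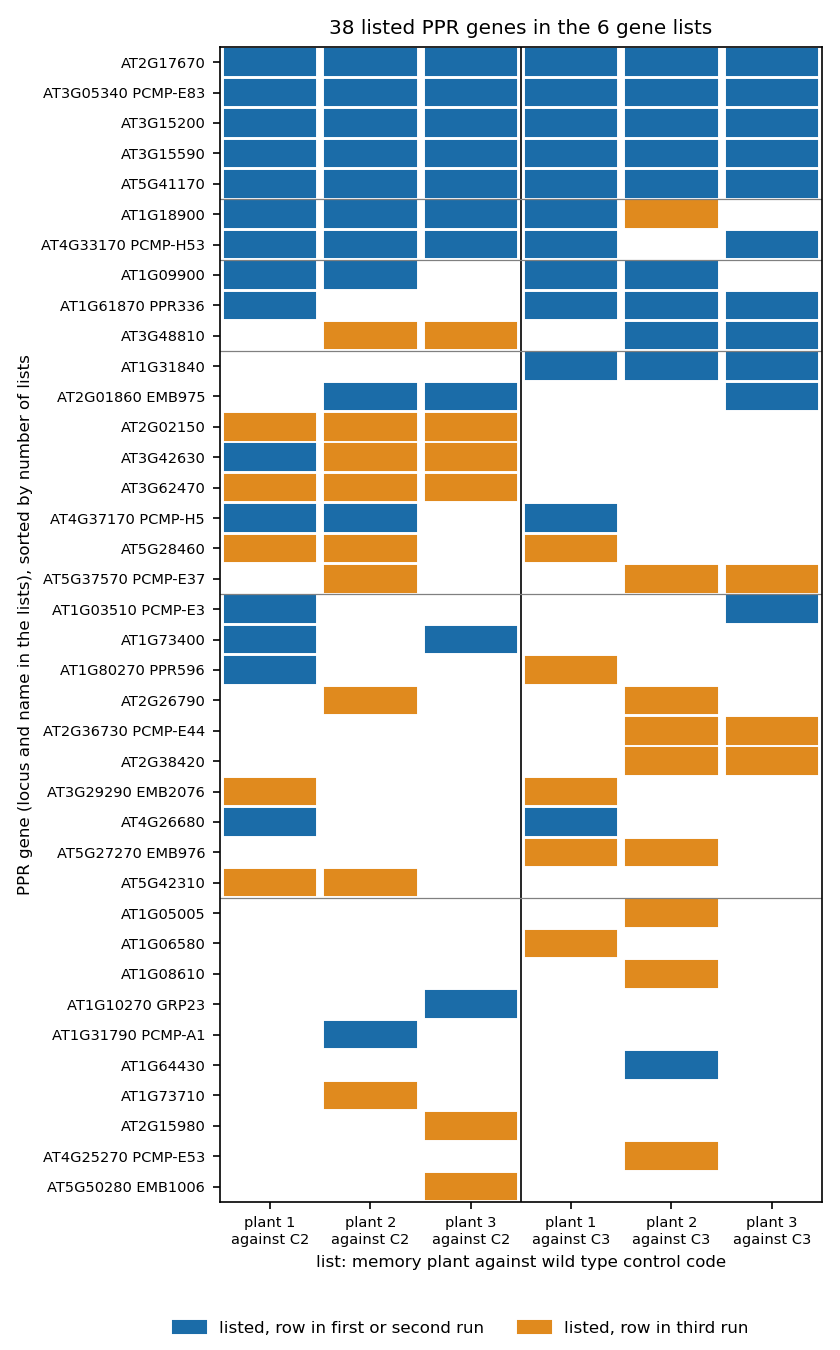
Presence of 38 of the 39 PPR genes (vertical axis, by locus and name in the lists) in the 6 lists (horizontal axis), with a filled cell for a listed gene. Blue cells are rows in the first or second run of the list and orange cells rows in the third run. The 5 genes in all 6 lists are blue throughout, whereas 17 genes, each in 3 lists or fewer, are orange in every list that holds them.

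By memory plant, 24 members (61.5%) were in a list of memory plant 1, 29 (74.4%) in one of memory plant 2 and 23 (59%) in one of memory plant 3. Over all listed genes the shares were 74%, 63.7% and 58.3%, so that the order of memory plants 1 and 2 differed between the members and all listed genes. A total of 14 members (35.9%) were listed for a single memory plant, 4 (10.3%) for memory plant 1, 7 (17.9%) for memory plant 2 and 3 (7.69%) for memory plant 3. Over all listed genes 41.3% were listed for a single memory plant, with 22%, 11.4% and 7.88% for memory plants 1, 2 and 3. The members in lists of all 3 memory plants numbered 12 (30.8%), against 37.2% of all listed genes. By control, 10 members (25.6%) were listed against C2 and not C3, 9 (23.1%) against C3 and not C2, and 20 (51.3%) against both. All listed genes had 31.2%, 19.1% and 49.7%. The difference between controls within 1 memory plant is that between 2 wild type libraries, and 20 of the 39 members (51.3%) had no memory plant in which they were listed against both, close to the 51.7% of all listed genes.

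The lists held 21, 20 and 17 members for memory plants 1, 2 and 3 against C2 and 18, 19 and 15 against C3. To set these against the family, 466 PPR genes were taken from the reference by product name or InterPro domain. This family held 38 of the 39 members and 3 listed genes that the deposited descriptions name otherwise, AT2G20720, AT5G43822 and *PNM1* (AT5G60960), for a PPR protein of nuclei and mitochondria, each in 1 list. In at least 1 list were 41 of the 466 PPR genes (8.8%), against 9.47% of the 27444 nuclear protein-coding genes. In all 6 lists were 4 of the 466 (0.858%), against 1.55% of all genes. List by list the family had 4.72%, 4.29% and 3.43% of its genes present against C2, where all genes had 5.86%, 4.72% and 4.42%. Against C3 the family had 3.65%, 3.86% and 3%, where all genes had 4.76%, 3.84% and 3.55%. The share of listed PPR genes was thus near the share of all genes, below it in 5 lists and level with it for memory plant 2 against C3. The presence of 39 PPR genes in the lists is about what a family of this size had at the background rate, and their number alone is not a result about the family.

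**Figure D2:**
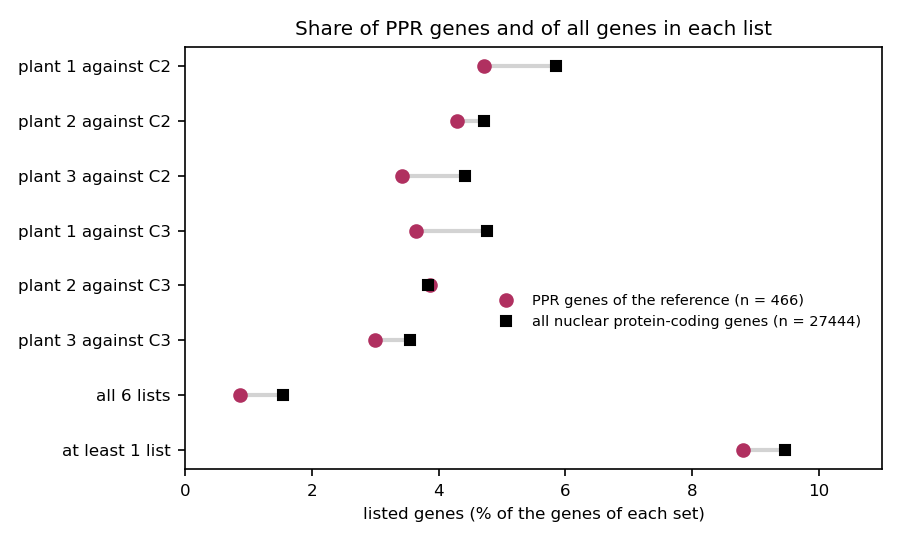
Percent of the 466 PPR genes of the reference (circles) and of the 27444 nuclear protein-coding genes (squares) present in each list, in all 6 lists and in at least 1 list. The circle lies left of the square everywhere but for memory plant 2 against C3, where they were 3.86% and 3.84%.

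Recurrence over lists was also close to that of other listed genes. The number of members in 1, 2, 3, 4, 5 and 6 lists was 10, 10, 8, 4, 2 and 5. The median was 2 lists for the members and 2 for all listed genes, and the mean was 2.82 and 2.86. Genes in all 6 lists made up 12.8% of the members and 16.4% of all listed genes, and genes in 3 lists 20.5% and 14%.

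**Figure D3:**
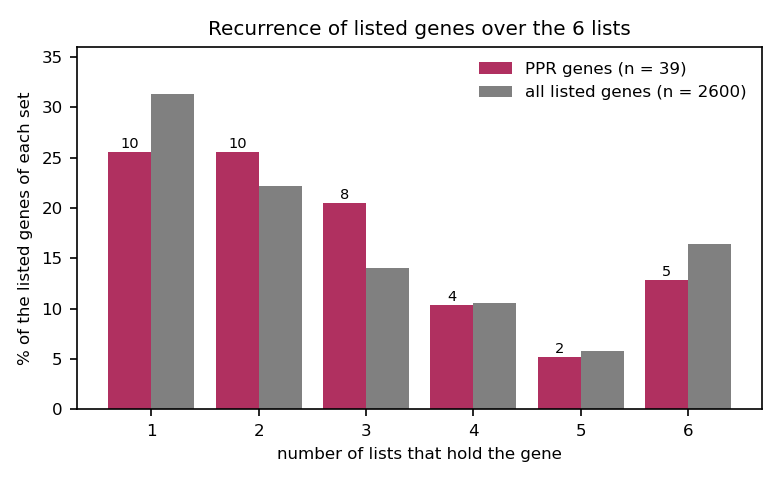
Percent of the 39 listed PPR genes (red, with the number of genes above each bar) and of all 2600 listed genes (grey) by the number of lists that hold them. The members have their largest bars at 1 and 2 lists, with 10 genes each, and a second rise at 6 lists, with 5 genes, as all listed genes also have.

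By name, 16 members carried a symbol in the lists, of which 9 were PCMP names, 6 in the E group, 2 in the H group and 1 in the A group. The PCMP genes ranged from 1 to 6 lists, with a median of 3. The 4 genes with an EMB name, given for an embryo defective mutant, ranged from 1 to 3 lists, with a median of 2. The descriptions named mitochondria for 9 members and chloroplasts for 2, AT4G25270 and AT5G50280, and gave no organelle for 28. The genes described as mitochondrial were AT3G15590, AT5G41170, AT1G61870, AT3G62470, AT1G73400, AT2G26790, AT2G38420, AT4G26680 and AT5G42310, with a median of 2 lists and 2 genes in all 6. Both genes described as chloroplast genes were in 1 list each. The location of the proteins was not checked beyond the descriptions, and with 28 members given no organelle these counts do not compare the organelles.

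On the chromosomes, 14 members lay on chromosome 1, 7 on chromosome 2, 8 on chromosome 3, 4 on chromosome 4 and 6 on chromosome 5. Of the 5 members in all 6 lists, 3 lay on chromosome 3 and none on chromosome 1, which held the most members. With so few genes, and no count by chromosome of all genes in all 6 lists, this is not a result about chromosomes. The listed share of the PPR family was highest on chromosome 2, at 12.3%, and lowest on chromosome 4, at 6.25%, where all genes had 10.8% and 10.6%. None of the members shared a run of 31 bases with the mitochondrial or plastid genome over the gene and 2 kb on both sides.

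The rows of every list fell into 3 runs per chromosome, each starting again at the lowest position. The first run held plus strand genes, the second minus strand genes, and the third both, and the files do not say what the runs stand for. A total of 37 of the 110 member entries (33.6%) were in the third run, against 37.2% of all 7448 entries. Recurrent and rarely listed members differed in this when counted by entry, though the entries of 1 gene are not independent. Of the 56 entries of the 11 genes in 4 to 6 lists, 3 (5.36%) were in the third run, and of the 54 entries of the 28 genes in 1 to 3 lists, 34 (63%) were. All listed genes had 29.1% and 48.9%. All 30 entries of the 5 genes in all 6 lists were in the first or second run. Each of these 5 genes thus kept 1 run in all its lists, since outside the third run the strand of a gene fixes its run. Over all listed genes in all 6 lists, 23.7% of the entries were in the third run. Across the members 18 (46.2%) were never in the third run, 17 (43.6%) were in it in every list and 4 (10.3%) changed run between lists, near the 49%, 39% and 12% of all listed genes. The 4 genes were AT1G18900, AT3G48810, AT3G42630 and AT1G80270. AT3G48810 was in the third run in both lists against C2 and in the first in both lists against C3.

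PPR genes sit close to their neighbours. The median space to the next protein-coding genes on both sides together was 721 bp for the 425 unlisted PPR genes of the reference and 1876 bp for all protein-coding genes. For the 39 members it was 1560 bp, and for all listed genes 2710 bp. Most of the space of the members lay on the 5′ side, with a median of 755 bp there and 105 bp on the 3′ side, where unlisted PPR genes had 270 and 127 bp and all protein-coding genes 953 and 407 bp. The 5′ space was the longer for 29 of the 39 members (74.4%) and for 63.3% of the unlisted PPR genes, 65% of all listed genes and 64.6% of all protein-coding genes. All listed genes had medians of 1402 bp on the 5′ side and 493.5 bp on the 3′ side, so that listed genes in general had more space than all genes. Among the 11 genes in 4 to 6 lists the 5′ space was the longer for 10, with medians of 1022 and 49 bp. For the 28 genes in 1 to 3 lists it was the longer for 19 (67.9%), with medians of 564.5 and 156.5 bp. The exception among the 11 was AT2G17670, with 606 bp on its 5′ side and 2731 bp on its 3′ side. The 5′ space of the other genes in all 6 lists was 796 bp at AT3G05340, 2242 bp at AT3G15200, 3175 bp at AT5G41170 and 9303 bp at AT3G15590. These medians are descriptions of annotated genes, and their part in the listing was not tested.

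**Figure D4:**
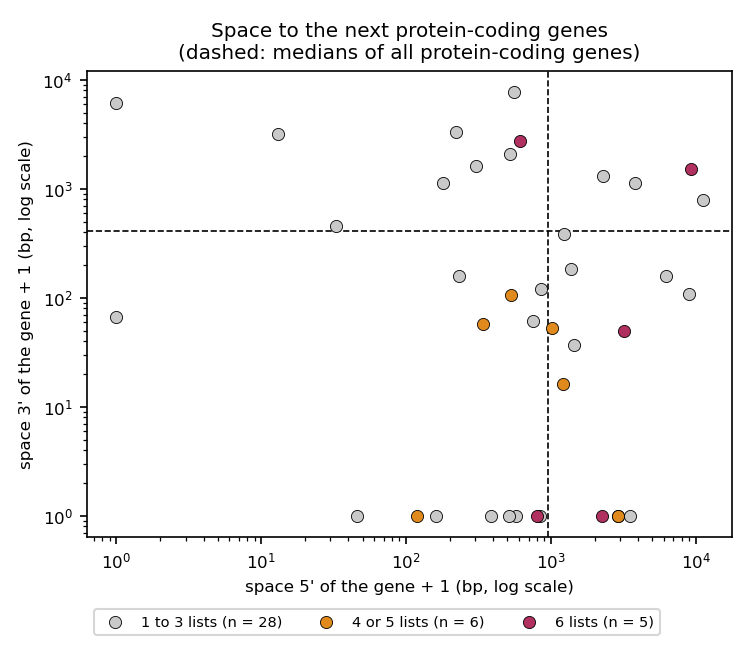
Space in bp, plus 1 and on log scales, from each of the 39 listed PPR genes to the next protein-coding gene on its 5′ side (horizontal axis) and 3′ side (vertical axis), coloured by number of lists. Points on the lowest or leftmost line have no space, and the dashed lines are the medians of all protein-coding genes, 953 and 407 bp. The genes in 4 or 5 lists lie below the 3′ median, as do 3 of the 5 genes in all 6 lists.

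All 39 members had another protein-coding gene within 2 kb, so that 1 peak could lie in the windows of both. In 99 of the 110 member entries (90%) none of those close genes was in the same list, against 87% for the entries of all listed genes with a close gene. At any distance, 10 members (25.6%) had an adjacent gene in at least 1 of their own lists, against 25.4% of all listed genes. For 4 of them the neighbour was in every list of the member: AT3G15590 with AT3G15605, at 9303 bp and in all 6 lists, AT2G01860 with AT2G01850, at 576 bp and in all 3 lists of the member, and AT1G05005 and AT2G15980, in 1 list each, with AT1G05000 and AT2G15970. At 9303 bp the 2 kb windows of AT3G15590 and AT3G15605 do not overlap, whereas at 576 bp those of AT2G01860 and AT2G01850 do. For the other genes in all 6 lists, AT5G41170 had an adjacent gene in 1 of its lists, and AT2G17670, AT3G05340 and AT3G15200 had none.

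In gene length, single exons and GC content the members were near the unlisted PPR genes. Their median protein was shorter and a smaller share ended in DYW, which was not tested. The median gene length was 2278 bp, against 2247 bp for the unlisted PPR genes, and the median protein had 568 residues, against 620. A single exon was annotated for 23 of the 39 members (59%) and for 63.1% of the unlisted PPR genes, where all protein-coding genes had 20%. Proteins ending in DYW were 2 of 39 (5.13%) among the members and 54 (12.7%) among the unlisted PPR genes. The GC content over the gene and its flanks had a median of 37.91% in the members and 38.46% in the unlisted PPR genes.

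Members of a repeat family can share reads with their relatives. The share of 31-base runs that occur more than once in the genome, over the gene and 2 kb on both sides, had a median of 0.884% for the members and 0.2445% for the unlisted PPR genes. All listed genes had 1.295% and all protein-coding genes 0.424%, so that listed genes in general had the higher share. For the 5 members in all 6 lists the median was 3.79%, with a range from 0% to 11.84%, the highest at AT3G15590. The share was over 10% for 6 members. It was over 40% for 2 members, whose entries are therefore the most uncertain. AT5G28460, in 3 lists, had 81.77% repeated runs and a protein 98.69% identical to that of AT3G61520, which was in no list. AT3G62470, in 3 lists, had 41.7% and was 98.16% identical to AT3G62540, also in no list. The other members with a match in the reference were at most 74.83% identical to their closest relative, which was the value for AT1G18900 and AT1G74750. The closest relative was itself listed for 3 members. AT3G15590, in all 6 lists, had *PPR596* (AT1G80270), in 2 lists, as its closest relative, at 44.52% identity.

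Other nuclear genes of organelle RNA metabolism were looked up as 37 chosen loci, of which 36 were matched, together with 37 mTERF genes found by name in the reference. Of these 73 genes, 4 (5.48%) were in at least 1 list and none in all 6, against 9.47% and 1.55% of all protein-coding genes, and with so few genes these counts are not a result about the group. The listed genes were the splicing factor *CFM2* (AT3G01370) for memory plant 2 against C2, the maturase *NMAT2* (AT5G46920) for memory plant 3 against C2, the organelle RNA polymerase *RPOTP* (AT2G24120) for memory plants 2 and 3 against C3, and the plastid polynucleotide phosphorylase gene (AT3G03710) for memory plant 2 against C3. Of those looked up, none of 8 editing cofactors of the MORF family, 37 mTERF genes, 6 sigma factors and 3 WHIRLY genes was listed. *MSH1*, the gene suppressed in the ancestors of the memory line, was in none of the 6 lists.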

How the data were processed

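FAIRE-seq had been run on wild type and *msh1* memory line rosettes. The deposited tables are gene lists made by the authors, with a locus, a name and a description, and hold neither counts nor coordinates. Per the submitters' processing notes, Trim Galore 0.4.1, cutadapt 1.9.1, Bowtie2 and the TAIR10 genome were used. The peak caller and threshold are not given in the sources used here. The members and gene lists were chosen with earlier results of these data known.

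Loci were matched to RefSeq TAIR10.1, which has 27444 nuclear protein-coding genes and held all 2600 loci. Spaces were taken between annotated protein-coding genes, with overlaps set to 0. Proteins were compared with blastp 2.17.0 (E-value at most 1e-20). Tables were handled in Python 3.11.15 with pandas 2.3.3. Presence in at least 1 list or in all 6 was a count, no p-value was computed, and depth and its precision are unknown. Every member but 1, which is not reported here by name, was named, with those in all 6 lists, those with a symbol and those of each memory plant or control described as groups. The alternatives were other name rules, leaving out each memory plant, each control alone, leaving out members listed with a neighbour, and 1 strand for motifs.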

Additional observations from a re-analysis of the deposited data

How the results depend on the processing

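Of 43 alternative values of 8 results, 38 stayed within the margins set for them. The margin was 1.5 times for counts and 1.668 lists, the SD over members, for the median number of lists. For the listed share of the family it was 6.39% to 11.7%, a binomial 95% interval that takes genes as independent. These margins are wide, so that staying within them does not show that a value was unchanged. Without memory plants 1, 2 and 3 in turn, the members in at least 1 list numbered 32 to 36, and the median number of lists was 2. The members in all remaining lists numbered 6 to 7, where 1.77%, 1.85% and 1.93% of all genes were in all remaining lists. The listed share of the PPR family was 7.51%, 7.08% and 8.15%, where all genes had 7.39%, 8.39% and 8.73%. The family thus stood above all genes without memory plant 1 and below them without memory plant 2 or 3. Against C2 alone, 10 members were in all 3 lists, and against C3 alone 7, where all genes had 798 (2.91%) and 578 (2.11%), each above the 426 (1.55%) in all 6 lists. Against C3 alone, 6.01% of the family was listed, where all genes had 6.52%. Fewer lists are searched in both. On the gene strand alone, site II, telo-box and TATAAA matches were found before 6, 2 and 6 members, since 1 strand is read in place of both. The rule by product name alone and the removal of 2 near-identical copies (37 members) were chosen after seeing the data. With the rule by product name alone 9.68% of the family was listed, above the 9.47% of all genes, where the main rule gave 8.8%. No paired analysis was possible because the lists hold presence or absence only, with no test, and the control codes could not be matched to a replicate.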
